A study of Mus musculus with 3 samples.

Results

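The genes described here are 10 sensors of foreign or misplaced RNA and DNA and the adaptors that pass their signal on. They were taken by gene symbol, and not by expression, from the 24421 genes counted by RNA-Seq in mouse ES cells. The receptors are Ddx58, Ifih1, Dhx58 and Tlr3, the adaptors are Mavs and Tmem173, and the others are the ubiquitin ligase Trim25 and the kinases and binding protein Tbk1, Eif2ak2 and Zbp1. The study examined how NUP153, a protein of the nuclear pore basket, acts on chromatin structure and gene expression, and RNA-Seq was performed on control and NUP153-deficient ES cells. All 3 libraries came from EL16.7, an undifferentiated female ES cell line of the background F2:129S1/CastEiJx 129S1, which is of wild-type genotype in control. The control cells received a scramble shRNA by lentivirus, the KD-1 cells NUP153 shRNA-1 and the KD-2 cells NUP153 shRNA-2. In every condition the cells were grown with LIF on γ-irradiated embryonic fibroblasts of Tg(DR4)1Jae/J mice and were selected with 2 μg/ml puromycin for 2 days. Each condition has 1 library, the cells were used as transduced and selected cultures, with no cloning step described, and whether feeder cells were removed before the RNA was isolated is not given in the sources used here.

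RIG-I-like receptors are cytosolic helicases that bind double-stranded RNA and activate the adaptor MAVS on mitochondria. Through kinases such as TBK1 this leads to transcription of type I interferon, and interferon in turn raises the expression of many antiviral genes, among them several of the sensors themselves. TLR3 senses double-stranded RNA in endosomes, and STING, the product of Tmem173, passes on the signal of DNA in the cytosol. ES cells are known for a weak interferon response, whereas embryonic fibroblasts respond strongly.

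Interferon acts on its target genes through a pair of GAAA repeats, the core of the interferon-stimulated response element, which IRF and STAT proteins bind. The RefSeq start sites of GRCm38.p6 were therefore searched from 250 bases before to 50 bases after each start, on both strands. The letters were GAAANNGAAA, the spacing of that element, or GAAANGAAA, a pair with a shorter spacing. Both are called the repeat here. Of 32851 such windows of 300 bases, 1131 (3.44%) held GAAANNGAAA, 1040 (3.17%) held GAAANGAAA and 2061 (6.27%) held either. Windows were matched for 7 of the 10 genes, and the repeat occurred in 3 of them, Ifih1, Ddx58 and Eif2ak2. The table of start sites used here was not matched to Dhx58, Zbp1 and Tmem173. The 30 bases around each match are shown since these genes are interferon-inducible and their values are given below. The capitals mark the repeat, written 5′ to 3′ on the strand of the gene, and TTTC in capitals is the repeat on the opposite strand.
Ifih1, chr2:62646206-62646235, minus strand: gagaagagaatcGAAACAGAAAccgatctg
Eif2ak2, chr17:78882535-78882564, minus strand: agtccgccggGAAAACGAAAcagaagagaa
Ddx58, chr4:40239804-40239833, minus strand: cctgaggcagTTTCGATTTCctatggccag
Ddx58, chr4:40239866-40239895, minus strand: tctaggttcaGAAACGAAActggatccccg

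Counting the start as base 1, the repeat began at base 33 in Ifih1 and at base 19 in Eif2ak2. Ddx58 held GAAANNGAAA from base 3, on the opposite strand, and GAAANGAAA from 60 bases upstream of the start. For comparison, 5 of the 8 interferon-stimulated genes with a window that are listed further below held GAAANNGAAA and 2 held GAAANGAAA. A match describes these letters in these windows and is not a measured binding site. The 250 bases upstream of the start are shown for Ifih1 and Tlr3, which were lower in KD-1, and for Mavs, which was not lower in either knockdown library. They are also shown for Ddx58, whose GAAANGAAA match lies upstream of its start. The RefSeq start used for Tlr3 lies inside the gene span given below, so that its stretch is upstream of that start and not of the outermost end of the gene. Capitals again mark the repeat, and the lower case sequences hold none.
Ifih1, chr2:62646256-62646505, minus strand: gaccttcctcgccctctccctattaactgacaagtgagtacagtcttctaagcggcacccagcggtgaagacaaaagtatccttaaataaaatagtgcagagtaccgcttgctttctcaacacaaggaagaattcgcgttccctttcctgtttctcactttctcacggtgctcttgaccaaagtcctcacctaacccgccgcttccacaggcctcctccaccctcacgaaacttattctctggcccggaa
Tlr3, chr8:45410381-45410630, minus strand: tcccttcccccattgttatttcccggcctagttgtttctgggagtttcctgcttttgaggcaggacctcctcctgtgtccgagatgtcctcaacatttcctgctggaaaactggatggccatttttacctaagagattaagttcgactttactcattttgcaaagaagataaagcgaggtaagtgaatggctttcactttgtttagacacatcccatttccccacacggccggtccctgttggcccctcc
Ddx58, chr4:40239826-40240075, minus strand: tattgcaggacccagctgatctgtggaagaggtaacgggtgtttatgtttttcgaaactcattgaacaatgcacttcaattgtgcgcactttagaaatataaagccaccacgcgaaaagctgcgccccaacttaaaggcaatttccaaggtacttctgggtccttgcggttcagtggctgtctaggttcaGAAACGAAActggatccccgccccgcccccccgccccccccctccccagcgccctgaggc
Mavs, chr2:131233813-131234062, plus strand: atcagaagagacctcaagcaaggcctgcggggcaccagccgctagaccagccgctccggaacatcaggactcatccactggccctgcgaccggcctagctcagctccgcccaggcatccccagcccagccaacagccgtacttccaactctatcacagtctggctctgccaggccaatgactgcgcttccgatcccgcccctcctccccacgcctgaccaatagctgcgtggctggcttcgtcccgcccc

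Between 69839336 and 85258834 reads per library were counted on genes, and all 10 sensors and adaptors were among the 16670 genes that reached a mean of 10 reads. Nup153, the gene targeted by both shRNAs, had 27870 reads in control and was 2.01-fold lower in KD-1 (16451 reads) and 2.61-fold lower in KD-2 (11126 reads). All 10 ES cell markers were detected in every library, with Pou5f1 at 35405, 45092 and 32962 reads in control, KD-1 and KD-2. All 16 fibroblast markers were also detected in every library, none at 0, and their summed level was 3313 RPM (control), 2336 RPM (KD-1) and 5824 RPM (KD-2), where RPM are reads per 1000000 reads of the TMM-scaled library. The summed level of the ES cell markers was 4845, 5215 and 3662 RPM, so that the sums of both lists stood in opposite order. Singly, Pou5f1, Nanog, Zfp42 and Dppa5a had the order of the ES cell sum. Klf4 and Utf1 were highest in KD-2, Sox2 and Tdgf1 in control, and Esrrb was lowest in control. Dppa4 was alike in control and KD-1 and lower in KD-2. Macrophage markers summed to between 4.03 and 4.72 RPM. Endothelial markers summed to 64.4 RPM (control), 73.2 RPM (KD-1) and 50.8 RPM (KD-2). In control, Pecam1 (34.7 RPM) and Tek (25.4 RPM) made up most of this sum, while Cdh5 had 3 reads and Tie1 1 read. Primitive endoderm markers summed to 7.74, 9.27 and 11.6 RPM. Of the 5 measured, Gata6 and Dab2 were called higher in KD-2 by the rule given below. In bulk RNA, fewer cells of a type and less RNA per cell cannot be told apart.

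Levels are given as RPKM, which are reads scaled by exon length and by 1000000 reads on genes, with exact Poisson 95% intervals. In control, 4 genes were above 10 RPKM: Trim25 at 19.7 RPKM, Eif2ak2 at 18.2, Ddx58 at 15.3 and Tbk1 at 14.8. Mavs followed at 6.18 RPKM and Tmem173 at 4.25. The other 4 were below 1 RPKM, with Zbp1 at 0.824, Dhx58 at 0.808, Ifih1 at 0.730 and Tlr3 at 0.354. Neighbours in this order whose intervals overlapped were Ddx58 and Tbk1, and Zbp1, Dhx58 and Ifih1. In KD-1, Trim25 was highest at 20.9 RPKM and Tlr3 lowest at 0.227, and the neighbours Dhx58 and Ifih1, and Ifih1 and Tlr3, overlapped. In KD-2, Eif2ak2 at 19.5 RPKM and Trim25 at 18.8 overlapped, and so did Tmem173 at 8.0 and Mavs at 7.6, Dhx58 and Ifih1, and Zbp1 and Tlr3. All these intervals, and those of the fold changes, cover counting error only, since reads without molecular identifiers are not independent molecules and 1 library per condition gives no spread between cultures.

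**Figure D1:**
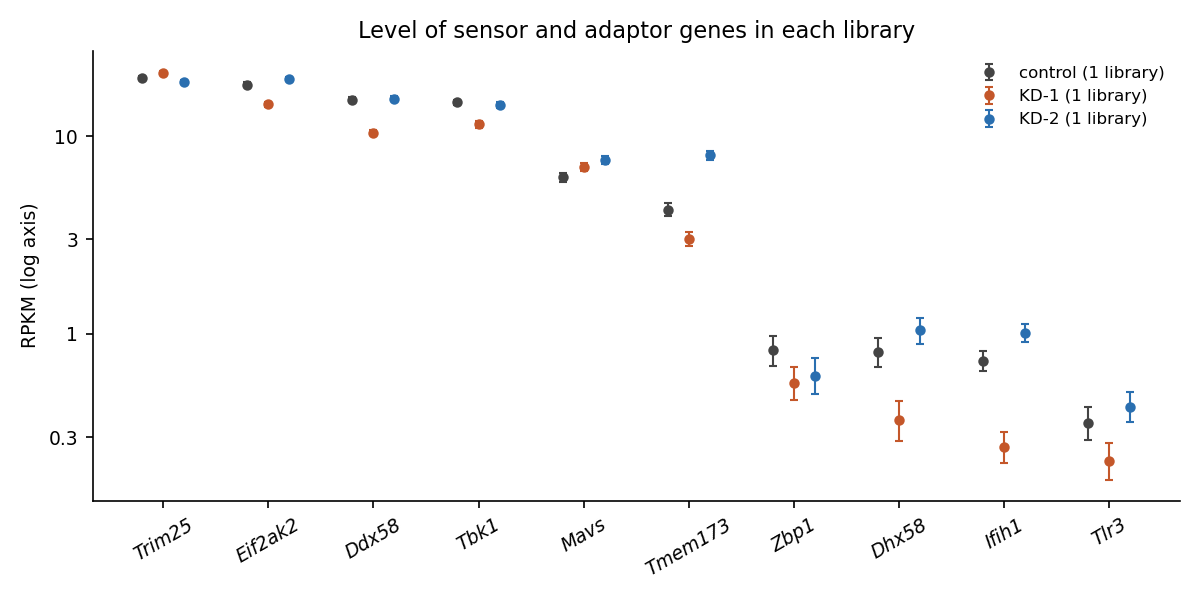
Level of the 10 sensor and adaptor genes in RPKM (log axis) in the control, KD-1 and KD-2 library, 1 library each, with exact Poisson 95% intervals as bars. Of the 4 genes below 1 RPKM in control, Dhx58, Ifih1 and Tlr3 were lowest in KD-1 and highest in KD-2, and Tmem173 reached 8.0 RPKM in KD-2.

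Fold changes were computed from reads scaled by TMM and not from RPKM, and a gene is named as called where the fold change was above 1.5 and its 95% counting interval did not include 0 on the log2 scale. The control library is the same in both comparisons, which therefore share its error.

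Ifih1 encodes MDA5, the receptor for long double-stranded RNA, and lies at chr2:62595798-62646255 on the minus strand (GRCm38, as for the genes below). It had 289 reads in control against 125 for KD-1 and 386 for KD-2, or 0.730, 0.268 and 1.01 RPKM. KD-1 was thus low and KD-2 high, and none of the 3 Poisson intervals overlapped. In KD-1 Ifih1 was called lower, by 2.73-fold (log2 fold change -1.45, interval -1.77 to -1.15). In KD-2 it was not called (0.36, interval 0.13 to 0.58). Between the knockdown libraries Ifih1 differed most of the 10 genes, with a 3.5-fold higher level in KD-2 (log2 1.81, interval 1.52 to 2.11).

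Dhx58 at chr11:100694884-100704271 encodes LGP2, a RIG-I-like receptor without the signalling domains of the others, which modulates their activity. It was covered by 141 reads (control), 75 reads (KD-1) and 175 reads (KD-2), or 0.808, 0.365 and 1.04 RPKM. As for Ifih1, KD-1 was the low library, while the intervals of control and KD-2 overlapped. Dhx58 was called lower in KD-1, by 2.22-fold (log2 fold change -1.15, interval -1.58 to -0.74), and was not called in KD-2 (0.25, interval -0.08 to 0.58). The difference between KD-2 and KD-1 was 2.64-fold (log2 1.40, interval 1.01 to 1.82). Its exons overlap those of an antisense gene, Dhx58os, over 141 bases, and reads of both cannot be separated since the strand setting of the counting is not stated.

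Ddx58 at chr4:40203773-40239828 encodes RIG-I, which binds short double-stranded RNA with a 5′ triphosphate. It had 4296 reads in control against 3439 for KD-1 and 4174 for KD-2, or 15.3, 10.4 and 15.4 RPKM. KD-1 was again the low library, and control and KD-2 lay together. Ddx58 was 1.48-fold lower in KD-1 (log2 fold change -0.56, interval -0.63 to -0.50), just under the threshold of 1.5, and was not called. With DESeq2 size factors in place of TMM it was called lower. Its log2 fold change for KD-2 was -0.10, which became 0.01 with library totals as the scaling. Ddx58 is by far the most abundant of the RIG-I-like receptors in RPKM, and its difference between KD-2 and KD-1 (log2 0.46, interval 0.40 to 0.53) lay below the intervals of Ifih1 and Dhx58.

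Mavs, the mitochondrial adaptor of both RIG-I and MDA5, lies at chr2:131234063-131248025 on the plus strand. It was covered by 1384 reads (control), 1849 reads (KD-1) and 1642 reads (KD-2), or 6.18, 7.01 and 7.6 RPKM. Both knockdown libraries were slightly above control, at log2 fold changes of 0.17 (KD-1) and 0.19 (KD-2), and Mavs was not called. The difference between KD-2 and KD-1 was 0.01 with an interval of -0.08 to 0.11.

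Trim25 at chr11:88999376-89020293 encodes a ubiquitin ligase that acts on RIG-I and was the most abundant of the 10 genes in control and KD-1. It had 8180 reads in control against 10249 for KD-1 and 7553 for KD-2, or 19.7, 20.9 and 18.8 RPKM. These levels lay close together, and the log2 fold changes of 0.08 (KD-1) and -0.17 (KD-2) were far from the threshold. Trim25 was the only one of the 10 genes that was lower in KD-2 than in KD-1 (log2 -0.26, interval -0.30 to -0.21) under TMM. With upper-quartile scaling Mavs was negative too, at a value that rounds to 0.

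Tbk1 at chr10:121546455-121586787 encodes the kinase that activates the transcription factor IRF3 downstream of MAVS and STING. It was covered by 3229 reads (control), 2954 reads (KD-1) and 3041 reads (KD-2), or 14.8, 11.5 and 14.4 RPKM. KD-1 was lowest, with a log2 fold change of -0.37 (interval -0.44 to -0.30) against -0.15 in KD-2, and neither was called.

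Tlr3 at chr8:45395665-45411080 was the least abundant of the 10 genes in every library. It had 115 reads in control against 87 for KD-1 and 134 for KD-2, or 0.354, 0.227 and 0.428 RPKM. KD-1 was the low library, and the intervals of control and KD-2 overlapped. Tlr3 was called lower in KD-1 at 1.56-fold (log2 fold change -0.64, interval -1.07 to -0.23), just above the threshold, and was at 0.16 in KD-2 (interval -0.21 to 0.53). KD-2 was 1.75-fold above KD-1 (log2 0.80, interval 0.41 to 1.21). An antisense gene, Gm45542, overlaps its exons over 117 bases.

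Eif2ak2 at chr17:78852564-78882573 encodes PKR, a kinase that binds double-stranded RNA and stops translation by phosphorylating eIF2α. It was covered by 5681 reads (control), 5324 reads (KD-1) and 5861 reads (KD-2), or 18.2, 14.5 and 19.5 RPKM. The library of KD-1 was lowest, with a log2 fold change of -0.34 (interval -0.39 to -0.28), and KD-2 was at -0.01, or 0.10 with library totals. It was not called in any comparison, and the exons overlap those of the noncoding gene Gm26637 on the opposite strand over 174 bases.

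Zbp1 at chr2:173206612-173218923 encodes a sensor of nucleic acids in the left-handed Z form that can start cell death. It had 129 reads in control against 104 for KD-1 and 93 for KD-2, or 0.824, 0.564 and 0.615 RPKM. Here both knockdown libraries were below control by about the same amount, at -0.55 on the log2 scale for KD-1 (interval -0.94 to -0.17) and -0.53 for KD-2 (interval -0.93 to -0.14). Zbp1 was not called under TMM, and it was called lower in KD-1 with DESeq2 size factors. KD-2 and KD-1 differed by 0.02 with an interval of -0.40 to 0.44.

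Tmem173 encodes STING, the adaptor at the endoplasmic reticulum that cyclic GMP-AMP activates when DNA is in the cytosol, and lies on chromosome 18 from 35733679 to 35740554. It was covered by 708 reads (control), 592 reads (KD-1) and 1285 reads (KD-2), or 4.25, 3.02 and 8.0 RPKM. The libraries were thus well apart, with KD-2 highest and KD-1 lowest, and none of the intervals overlapped. In KD-2 Tmem173 was called higher by 1.74-fold (log2 fold change 0.80, interval 0.67 to 0.93). In KD-1 it was lower without being called (-0.50, interval -0.66 to -0.34). KD-2 was 2.47-fold above KD-1 (log2 1.30, interval 1.16 to 1.45).

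Together, 3 of the 10 genes (30%) were called lower in KD-1 and 0 were called higher, where 4.8% of all 16670 genes were called lower, 6.18% higher and 11% in either direction. The 3 genes were Ifih1, Dhx58 and Tlr3, and 8 of the 10 genes had a negative log2 fold change, with a median of -0.53 against 0.00 for all genes. In KD-2, 1 of the 10 genes, Tmem173, was called higher and 0 were called lower. That share of 10% is below the 16.6% of all genes that were called higher there, with 6.66% lower and 23.3% in either direction. The median of the 10 genes in KD-2 was 0.07 and that of all genes 0.03. Between both knockdown libraries, Ifih1, Dhx58, Tmem173 and Tlr3 (40%) were called higher in KD-2 and 0 were called lower. Of all genes 16.7% were called higher in KD-2 than in KD-1, 9.24% lower and 26% in either direction. The median difference of the 10 genes was 0.39 against -0.06 for all genes. The 16 fibroblast markers also summed to the lowest level in KD-1 and the highest in KD-2 (2336 and 5824 RPM), and their part in these counts was not tested.

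**Figure D2:**
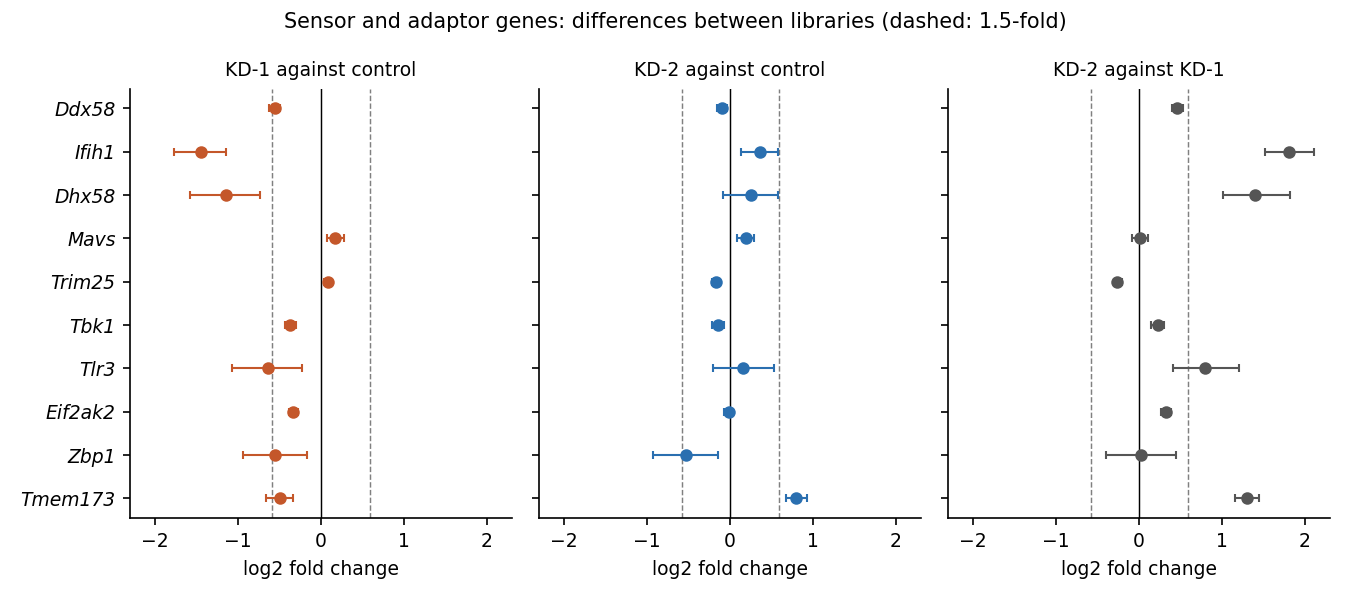
Log2 fold change of each sensor and adaptor gene in KD-1 against control, KD-2 against control and KD-2 against KD-1, with 95% counting intervals as bars and a fold change of 1.5 as dashed lines. Ifih1, Dhx58 and Tlr3 lie to the left of the lower dashed line in KD-1, and only Tmem173 lies to the right of the upper one in KD-2.

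Taking KD-1 and KD-2 together, the quasi-likelihood test of edgeR against control has 1 residual degree of freedom. Even Nup153, the target of both shRNAs, was not called by it, at a log2 fold change of -1.18. None of the 10 genes was called, each with an adjusted p of 1, and none had an unadjusted p under 0.05. The log2 fold changes lay between -0.54 for Zbp1 (unadjusted p = 0.356) and 0.29 for Tmem173 (unadjusted p = 0.566). For Ifih1 the group value was -0.28 (unadjusted p = 0.645), with KD-1 below and KD-2 above control. Over all genes 0 of 16670 (0%) were called by this test and 190 (1.14%) had an unadjusted p under 0.05. The Wald test of DESeq2 called 2 genes (0.012%), with 80 (0.48%) at an unadjusted p under 0.05, and likewise none of the 10.

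The genes that respond to interferon were examined next, since several sensors are among the targets of interferon. Of 10 interferon-stimulated genes, 9 (90%) were called lower in KD-1, against 4.8% of all genes, at a list median of -2.68 on the log2 scale. All 10 were called higher in KD-2 than in KD-1, against 16.7% of all genes, with a median of 2.82. None was called in KD-2 against control, where the median was 0.15. With library totals as the scaling, 1 of them was called higher in KD-2. Usp18, which removes ISG15 from proteins, had 333 reads in control against 22 for KD-1 and 297 for KD-2, or -4.13 (KD-1) and -0.22 (KD-2) on the log2 scale. Isg15, a ubiquitin-like modifier, had 701, 94 and 960 reads, and Ifi44 had 671, 79 and 970. The low library was KD-1 in each case, and control and KD-2 were within 1.5-fold of each other. Usp18, Isg15 and Ifi44 were named for the largest difference between KD-2 and KD-1 in their list, as were most genes named from the other lists. Their distance between the knockdown libraries was thus fixed by the choice. Bst2, which tethers budding virus to the cell surface, was the exception in KD-1, with 1244, 1224 and 1841 reads and a log2 fold change of -0.27.

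Genes that make and receive the interferon signal were also lowest in KD-1 for 6 of the 8 that were measured. Ifnb1 had 1 read in all, in KD-2, and Ifna4 had 0 reads in all 3 libraries. These interferon genes were not detectable at this depth, at which 3 reads are 0.0352 to 0.0430 RPM of the reads on genes. Of these 8, out of 10 in the list, Irf7, Stat2 and Irf9 were among those called lower in KD-1. Compared directly with KD-1, 6 were called higher in KD-2, and Jak1 and Ifnar2 were called higher in KD-2 than in control. The shares of all genes were 4.8% lower in KD-1, 16.6% higher in KD-2, and 16.7% higher in KD-2 than in KD-1. Irf7, a transcription factor that amplifies interferon production, was covered by 94 reads (control), 42 reads (KD-1) and 103 reads (KD-2), which is -1.39 for KD-1 on the log2 scale. Stat2, a transcription factor that interferon receptors activate, had 682, 388 and 817 reads, again with the lowest value in KD-1. Over the 8 genes the medians were -0.44 (KD-1) and 0.30 (KD-2).

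Cofactors of the RIG-I-like receptors modify, carry or bind the receptors and their RNA. None of the 11 was called in KD-1, with a range of -0.26 to 0.29 and a median of -0.06. In KD-2, 1 was called higher and 3 were called lower, with a median of -0.46, against 16.6% higher and 6.66% lower of all genes. The lower calls numbered 1 with library totals, 2 with upper-quartile scaling and 4 without the filter on low counts. Nlrx1, a mitochondrial protein that binds MAVS, had 83 reads in control against 91 for KD-1 and 191 for KD-2, which is 1.14 for KD-2 on the log2 scale. Dhx9, an RNA helicase, was at -0.71 and Ywhae, a 14-3-3 protein that carries RIG-I to membranes, at -0.61 in KD-2. Among endosomal receptors and their partners, 5 of 8 genes were measured. Of these, 3 (60%) were called higher in KD-2, against 16.6% of all genes. In KD-1, 0 were called, and 1 was called lower with DESeq2 size factors. Myd88, the adaptor of most Toll-like receptors, had 791, 638 and 1380 reads, with KD-2 highest and KD-1 lowest as for Tmem173. Unc93b1, which brings nucleic acid receptors to endosomes, had 82, 87 and 167 reads. Tlr8 was called lower in KD-2 than in KD-1, at -1.41, on only 10, 19 and 6 reads, a call that was lost with library totals (-1.31, interval -2.99 to 0.01). Tlr9 had 1 read in all, in KD-2.

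Of the 9 genes for cytosolic DNA and for self nucleic acid, 1 was called lower in KD-1, while KD-2 had 2 higher and 1 lower call. Over all genes, 4.8% were called lower in KD-1, and 16.6% higher and 6.66% lower in KD-2. Ifi204, an interferon-inducible DNA sensor, was covered by 705 reads (control), 390 reads (KD-1) and 997 reads (KD-2), the order seen for Ifih1, and was at -1.10 for KD-1 on the log2 scale. Rnaseh2c, a subunit of RNase H2, was called higher in KD-2 at 0.79. Aim2, which forms an inflammasome on DNA, was at -0.33 in KD-1 and was called lower in KD-2 at -1.07. Mb21d1, the gene of cGAS, which makes the ligand of STING, had 266, 403 and 233 reads and log2 fold changes of 0.35 and -0.25, neither of them called, and was called lower in KD-2 than in KD-1 (-0.60, interval -0.84 to -0.37). This call lay close to the threshold and was lost with DESeq2 size factors (-0.56) and with library totals (-0.50).

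In the kinase and NF-kB arm downstream of the adaptors, 1 of 12 genes was called in either knockdown library. Both calls were Tbkbp1, a scaffold of TBK1, with 131, 237 and 272 reads, and the call in KD-1 (0.61) was lost with DESeq2 size factors (0.56). Ikbke, the kinase closest to TBK1, was at -0.32 (KD-1) and 0.41 (KD-2) and differed by 0.73 between both. Irf3, the transcription factor that TBK1 activates, was at -0.05 and 0.47 and was not called. The medians of 0.09 (KD-1) and 0.15 (KD-2) were close to those of all genes. Of the 5 partners of ZBP1 in cell death, 2 were called higher in KD-2, Mlkl and Casp8. Over all genes, 11% were called in KD-1 and 23.3% in KD-2, where 16.6% were called higher and 6.66% lower. Mlkl, the protein that ruptures the membrane in necroptosis, had 359 reads in control against 197 for KD-1 and 572 for KD-2, and was called in opposite directions at -1.11 and 0.61. Casp8, the protease that restrains necroptosis, was at 0.02 (KD-1) and 0.79 (KD-2). Ripk3, the kinase that activates MLKL, was at -0.17 and 0.31 and was not called. Among the 6 genes for eIF2 kinases other than PKR, the eIF2α subunit and its phosphatase, 0 were called in KD-1 and Eif2s1 was called lower in KD-2 at -0.60, a call that was lost with library totals (-0.49). Ppp1r15a was at -0.18 and 0.47, and Eif2ak1, the haem-regulated kinase, at 0.16 and -0.12.

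Fibroblast markers had the same order of libraries as Ifih1, Dhx58, Tlr3 and Tmem173, lowest in KD-1 and highest in KD-2, for 15 of 16 markers (Col6a3 was at 0.07 in KD-1). Of the 16 markers, 9 were called lower in KD-1 (median -0.64, range -2.03 to 0.07), against 4.8% of all genes. In KD-2, 14 were called higher (median 0.83), against 16.6% of all genes. In KD-2 against KD-1, 15 were called higher (median 1.6), against 16.7% of all genes, with Col6a3 at 0.57. Postn, an extracellular matrix protein, was covered by 6547 reads (control), 1902 reads (KD-1) and 11277 reads (KD-2). Col3a1, a fibrillar collagen, had 54628, 25523 and 114064 reads, and Lum, a matrix proteoglycan, 4339, 1871 and 8174. Of the 10 ES cell markers, 1 was called higher in KD-1 (Utf1). In KD-2 Utf1 was called higher too, and Zfp42 and Dppa4 were called lower, a pair that was not called with library totals (-0.54 and -0.52). In the direct comparison of KD-2 with KD-1, Dppa5a (-0.86), Zfp42 (-0.68) and Dppa4 (-0.62) were called lower. With library totals Zfp42 (-0.57) and Dppa4 (-0.52) fell just short of the threshold, as did Dppa4 with DESeq2 size factors (-0.58). The part of the feeder cells in the values of the sensors and adaptors was not tested, and in these libraries the shRNA and the fibroblast level cannot be told apart.

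In KD-1 against control the difference of the interferon-stimulated genes was larger than that of the fibroblast markers, with a median of -2.68 against -0.64, and their summed level was 99.2 RPM (control), 31.9 RPM (KD-1) and 111 RPM (KD-2). In KD-2 against control the summed fibroblast markers were at 5824 against 3313 RPM, and the interferon-stimulated genes at 111 against 99.2. Tmem173, Myd88 and Mlkl were called higher in KD-2 than in control, as were 16.6% of all genes and 14 of the 16 fibroblast markers. Other listed genes, such as Nlrx1, Unc93b1, Casp8 and Rnaseh2c, were called higher there too. Ifih1, Dhx58 and Tlr3 differed from control in KD-2 by less than 1.5-fold. The part of the feeder cells in these values was not tested. Of the 10 genes, Mavs and Zbp1 had the smallest differences between KD-2 and KD-1, at 0.01 and 0.02 under TMM. They were the smallest under each other scaling too, but at 0.06 and 0.07 with DESeq2 size factors and 0.12 and 0.13 with library totals.

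**Figure D3:**
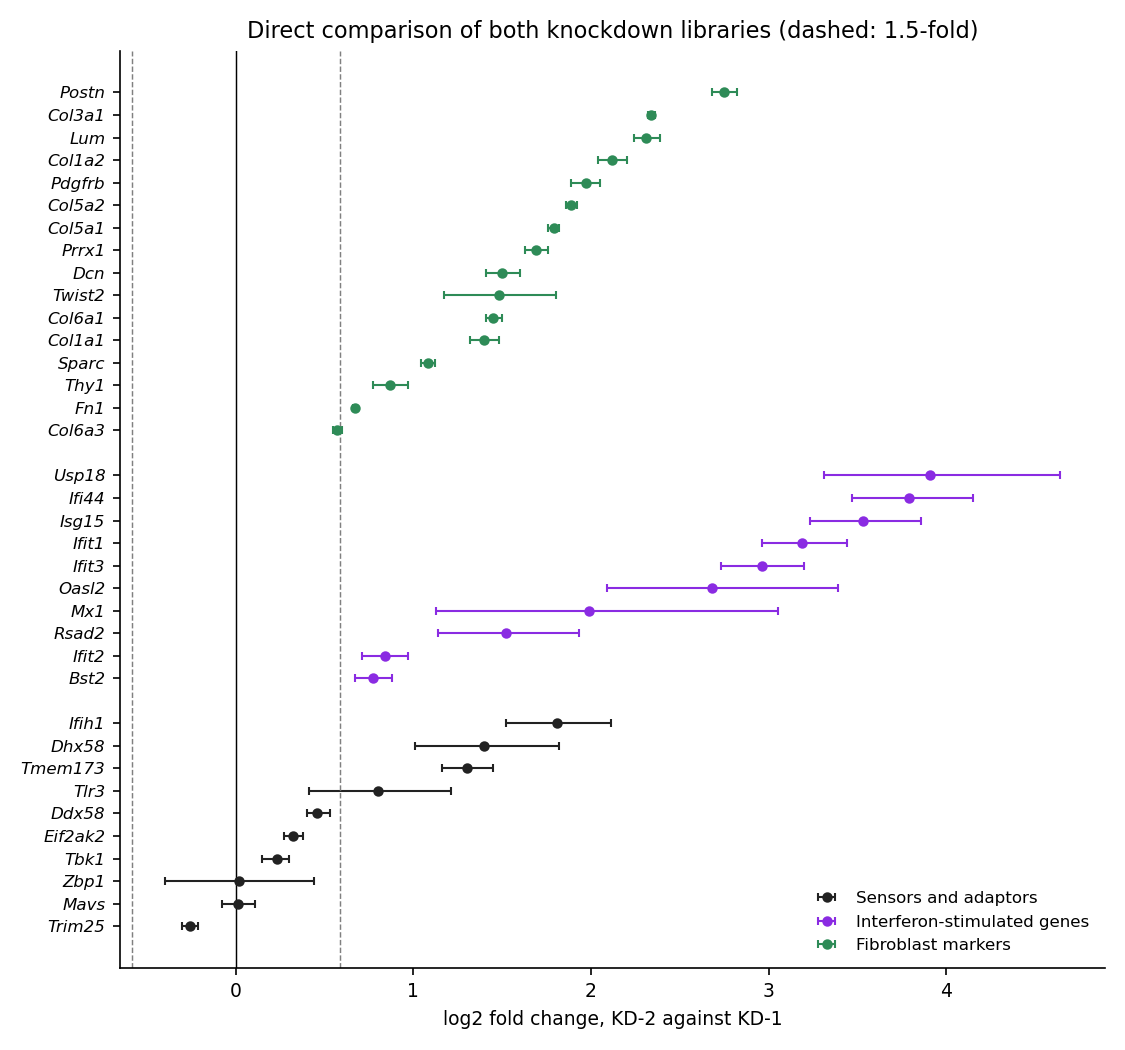
Log2 fold change of KD-2 against KD-1 for the sensors and adaptors, the interferon-stimulated genes and the fibroblast markers, 1 library each, with 95% counting intervals as bars and a fold change of 1.5 as dashed lines. All 10 interferon-stimulated genes and 15 of 16 fibroblast markers lie to the right of the upper dashed line, as do Ifih1, Dhx58, Tmem173 and Tlr3.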

How the data were processed

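Total RNA of mouse ES cells was depleted of ribosomal RNA and sequenced as 1 library for each of control, KD-1 and KD-2. Per the labels' processing notes, the authors used Trim Galore 0.4.1, TopHat2 2.1.1 and HTSeq on mm10 (GRCm38). The deposited values are raw counts of reads on each gene and were not normalized by the authors. Their methods name featureCounts as the counter, and the strand setting is not given in the sources used here. The 5 summary lines were left out of library sizes: reads outside of genes were 21.51 to 24.08% and ambiguous reads 1.454 to 1.646% of all reads.

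The 16670 genes reaching a mean count of 10 reads were scaled by TMM with edgeR 4.0.16 in R 4.3.3. Log2 fold changes had a pseudocount of 0.5 reads and exact Clopper-Pearson 95% counting intervals. With 1 library per condition no test was made between single libraries. Both knockdown libraries together were set against control in the quasi-likelihood test of edgeR, with Benjamini-Hochberg adjustment over all genes, and in DESeq2 1.42.0 (Wald test). The spread in this test is that between KD-1 and KD-2, which carry different shRNAs. Exon lengths came from the union of exons of the GRCm38 gene annotation, matched for 23334 genes by symbol and 643 by an older symbol. Start sites came from RefSeq. The computations used Python 3.11.15 (numpy 2.4.6, scipy 1.17.1, matplotlib 3.10.9, pandas 2.3.3) and were tested on simulated data.

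The 10 genes, the other gene lists and the tests were chosen with earlier results of these data known. Genes named are Nup153, the 10 sensors and adaptors, and of most other lists the 3 genes with the largest difference between KD-2 and KD-1. The macrophage, endothelial and primitive endoderm markers are given mainly as sums. Others (such as Bst2, Mb21d1, Utf1, Tlr9 and the genes counted as called) were named after their values were seen, and 1 gene that the rule names is not reported here. Alternatives were other scalings, a pseudocount of 5 reads, no filter, a fold change above 2, and 1.5 without the interval.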

Additional observations from a re-analysis of the deposited data

Results flagged for a closer look

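Some sensors and adaptors had log2 fold changes of opposite signs against the control library that KD-1 and KD-2 share. Ifih1 was at -1.45 (KD-1) and 0.36 (KD-2), and Dhx58 at -1.15 and 0.25. For Tlr3 the values were -0.64 and 0.16, and for Tmem173 -0.50 and 0.80. Trim25 went the other way, at 0.08 and -0.17. With 1 library per condition, the differences between KD-1 and KD-2 were not tested against a spread between cultures. The fibroblast markers had the same opposite signs, with medians of -0.64 (KD-1) and 0.83 (KD-2), and their part in these values was not tested.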

How the results depend on the processing

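Over 150 values of the 10 genes recomputed under other scalings, a pseudocount of 5 reads and no filter, 138 lay inside the counting interval of the reported value and 12 outside of it. The largest move was 0.11 on the log2 scale, 0 calls were lost and 2 were gained. With DESeq2 size factors, 5 genes were called lower in KD-1 instead of 3 (Ddx58 and Zbp1 were added). With a fold change above 2, 0 genes were called in KD-2 instead of 1 (Tmem173), 2 in KD-1 and 3 between KD-2 and KD-1. Over all genes, DESeq2 size factors changed the calls in KD-1 from 1031 higher and 800 lower to 873 and 923, and library totals those in KD-2 from 2767 and 1111 to 3548 and 631, with the median of all genes at 0.14. The quasi-likelihood test called 4 genes, none of them among the 10, with upper-quartile scaling or without the filter. Leaving out 1 knockdown library leaves 1 library against 1, a value with no test. For Ifih1 the group value of -0.28 became 0.36 without KD-1 and -1.45 without KD-2, and for Tmem173 0.29 became 0.80 and -0.50. Dhx58, Tlr3 and Trim25 also changed sign on leaving out 1 library. No paired analysis was possible because each condition has 1 library. Genes with few reads, such as Tlr3, Zbp1 and Dhx58, had the widest counting intervals, and no interval covers the spread between cultures.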
